A study of Mus musculus with 6 samples.

Results

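The genes of creatine synthesis, creatine uptake and the creatine kinases were followed in RNA sequencing of sorted haematopoietic stem cells, which replenish all blood lineages. The 7 members, Gatm, Gamt, Slc6a8, Ckb, Ckm, Ckmt1 and Ckmt2, were found by exact symbol among the 52183 genes of the deposited table, 1 row each. The set was chosen by the measured FPKM of these same libraries, with the difference of Gatm between the groups already known, so every difference of a member between the groups is given as a description, with no p-value. Gatm and Ckmt1 lie within 5 Mb of Thbs1 on chromosome 2, and the other members lie on other chromosomes. Stem cells were sorted from the bone marrow of 4-month-old female mice, and the groups were 3 libraries labelled Thbs1 knockout and 3 labelled control. The labels name neither the strain nor the deleted allele and do not tell whether a library pools animals or whether each had its own. P-values therefore describe library-to-library spread alone, part of which may be technical. Levels are FPKM, fragment numbers scaled by exon length and by sequencing depth. Exon length was taken over all annotated transcripts of a gene and not only those present, so comparisons between genes are approximate.

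Creatine is an energy buffer. GATM, a mitochondrial enzyme, joins arginine and glycine into guanidinoacetate and releases ornithine, and GAMT methylates guanidinoacetate with S-adenosylmethionine to give creatine. SLC6A8 carries creatine into cells from outside, and the creatine kinases move phosphate between ATP and creatine, CKB and CKM in the cytosol and CKMT1 and CKMT2 between the mitochondrial membranes. CKB is best known from brain, CKM and CKMT2 from striated muscle, and CKMT1 from brain and epithelia.

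Depth, read from the steps between FPKM values of short genes, lay between 25760000 and 30900000 reads in the libraries labelled knockout and between 22710000 and 25950000 reads in the control libraries. All 12 stem cell markers that were looked up, among them Kit, Ly6a, Procr, Slamf1, Mecom and Hlf, were above 1 FPKM in every library. Of these 12, 7 had groups that do not overlap, 3 higher and 4 lower in libraries labelled knockout, where 22.8% of all tested genes did not overlap. Ly6a, whose product Sca-1 is a surface marker used in stem cell sorting, fell to 89.2, 73.9 and 67.6 FPKM in the libraries labelled knockout, against 107, 119 and 119 FPKM in the control libraries (limma adjusted p = 0.0286). Thbs1 itself had levels of 10.8, 8.5 and 7.68 FPKM in the libraries labelled knockout and 4.12, 13.8 and 2.33 FPKM in the control libraries, so its level does not bear out the label and each direction below follows the labels alone. With limma, 12555 genes could be tested, and an adjusted p below 0.05 was reached by 71 genes (0.566%) that were higher and 125 (0.996%) that were lower in libraries labelled knockout, so that 36.2% of the calls were higher. Rescaled to TPM the split was 2370 higher and 115 lower, with 95.4% of the calls higher, and that scaling moved the median log2 change of all tested genes to 0.21.

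Gatm was the one abundant member and was about 2-fold higher in the libraries labelled knockout, while Gamt and Ckb were low and overlapped between the groups. Slc6a8, Ckm, Ckmt1 and Ckmt2 were at or near 0 in every library. Only Gatm, Gamt and Ckb had at least 1 FPKM in at least 3 libraries and entered the test. The other 4 members have values but no fitted change. Of the 3 tested members, 1 (Gatm) was past the threshold, where 1.56% of all tested genes were. Because Gatm was known to differ when the set was made, nothing is read from that count. With no filter on low genes, Gatm was not past the threshold.

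Gatm (ENSMUSG00000027199, GRCm38 chr2:122594467-122611303, minus strand) encodes the enzyme that opens creatine synthesis and is known in mouse as an imprinted gene of the placenta. It had 71.4, 96.6 and 82.8 FPKM in libraries 1 to 3 labelled knockout, against 38.5, 40.1 and 41.8 FPKM in control libraries 1 to 3. All 3 libraries labelled knockout lay above all 3 control libraries, as was the case for 12.6% of all tested genes. The means were 83.6 ± 12.6 FPKM in the libraries labelled knockout and 40.15 ± 1.65 FPKM in the control libraries (SD, n = 3 each), a ratio of 2.08. The difference on the log2(FPKM + 1) scale was 1.03 ± 0.10 (limma's moderated SE), and 20 of the 12555 tested genes had a larger one in the same direction. Between 6403 and 7545 reads lay behind each value of the libraries labelled knockout and between 2777 and 3001 behind each control value. Among 21843 protein-coding genes Gatm ranked 863rd, 571st and 671st from the top in the libraries labelled knockout, and 1725th, 1666th and 1589th in the control libraries. In bulk RNA, a change in the number of cells expressing a gene and a change in RNA per cell cannot be told apart. The sums of 3 marker lists of other marrow cells also differed between the groups, each mainly through 1 gene and not as a whole list. The summed level of 8 erythroid markers was 36.1 to 40.4 FPKM in the libraries labelled knockout and 44.9 to 50.5 FPKM in the control libraries, with 7 of the 8 markers reaching 1 FPKM somewhere. This gap came from the beta globin gene Hbb-bt: without it the list summed to 32.6 to 36.0 FPKM in the libraries labelled knockout and 30.5 to 37.0 FPKM in the control libraries, which overlap. The 7 macrophage markers, 4 of them reaching 1 FPKM, summed to 14.2 to 18.5 FPKM in the libraries labelled knockout and 22.1 to 22.6 FPKM in the control libraries. Among them only Cd68 had groups that do not overlap. It had 6, 8.96 and 7.23 FPKM in the libraries labelled knockout, against 9.93, 13.23 and 11.95 FPKM in the control libraries. The 10 B and T cell markers summed to 24.0 to 26.5 FPKM in the libraries labelled knockout and 28.1 to 30.7 FPKM in the control libraries. Nearly all of the B and T cell sum came from Cd79b. No marker of these 3 lists was at 0 in every library. These 3 sums were lower where Gatm was higher, and their part in the Gatm result was not tested. The megakaryocyte list summed to 273 to 388 FPKM in the libraries labelled knockout and 386 to 489 FPKM in the control libraries. It overlapped only at its edge, with 6 of 8 markers reaching 1 FPKM. In this list Pf4 had 245.1, 163.6 and 159.1 FPKM in the libraries labelled knockout, against 353.8, 321.1 and 269.8 FPKM in the control libraries. Itgb3 went the other way, at 27.85, 18.99 and 18.62 FPKM against 14.67, 14.79 and 11.6 FPKM. Neither passed (limma adjusted p = 0.0594 and 0.0934), and their part in the Gatm result was not tested. The lists of osteoclasts (1 of 7 reaching 1 FPKM), of neutrophils and monocytes (3 of 9, with Ly6g at 0) and of stroma and endothelium (3 of 8) overlapped and summed to at most 12.4 FPKM.

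**Figure D1:**
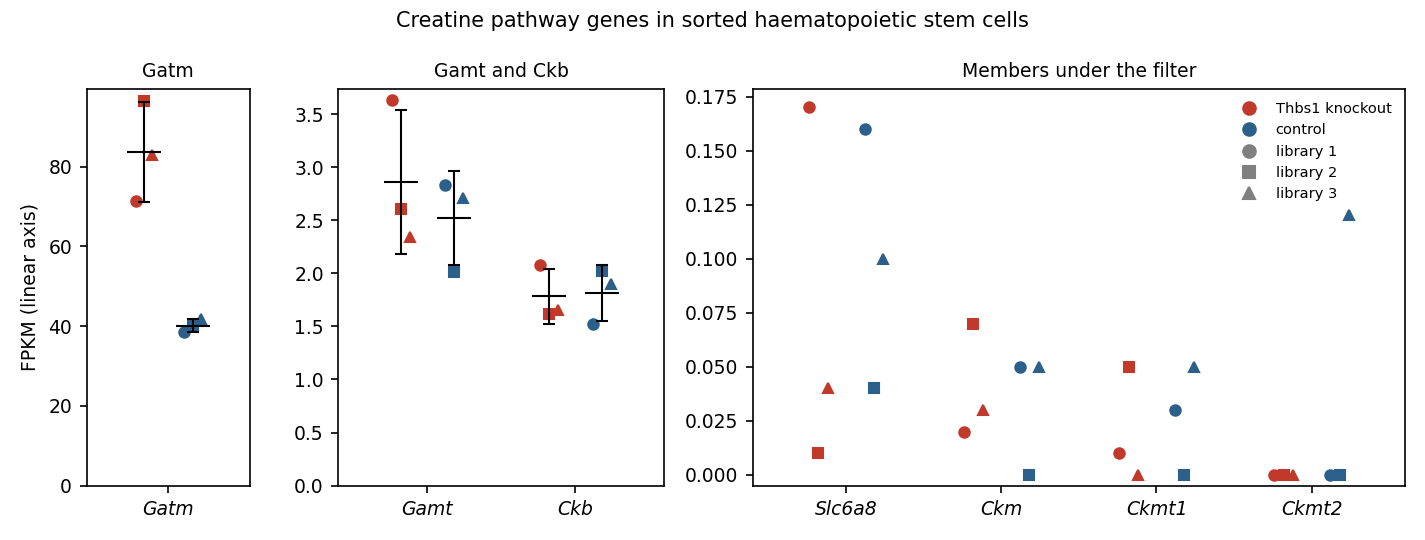
FPKM of the 7 members in each library on linear axes, with libraries labelled knockout in red, left of the control libraries in blue. Symbols mark the library number, and for Gatm, Gamt and Ckb the horizontal line is the mean and the bar the SD of 3 libraries. Gatm lies at 71.4 to 96.6 FPKM in the libraries labelled knockout and at 38.5 to 41.8 FPKM in the control libraries, Gamt and Ckb overlap between the groups, and the other 4 members stay at or below 0.17 FPKM.

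Gamt (ENSMUSG00000020150, GRCm38 chr10:80258151-80261012, minus strand), which encodes the methyltransferase that completes creatine, had 3.63, 2.61 and 2.34 FPKM in the libraries labelled knockout, against 2.83, 2.01 and 2.71 FPKM in the control libraries. The groups overlap, and the highest value comes from library 1 labelled knockout and the lowest from control library 2. The means were 2.86 ± 0.680 FPKM in the libraries labelled knockout and 2.52 ± 0.443 FPKM in the control libraries (SD, n = 3 each). The log2 difference of 0.13 ± 0.17 (SE) is smaller than its own error. These values rest on 87 to 162 reads in the libraries labelled knockout and 67 to 106 in the control libraries. The number of Gatm FPKM for each Gamt FPKM was 19.7, 37.0 and 35.4 in the libraries labelled knockout, against 13.6, 19.9 and 15.4 in the control libraries. This ratio of the first to the second synthesis enzyme overlaps between the groups, because library 1 labelled knockout lies just under control library 2.

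Ckb (ENSMUSG00000001270, GRCm38 chr12:111669361-111672338, minus strand), the brain-type cytosolic creatine kinase, was the one kinase above 1 FPKM. It had 2.08, 1.62 and 1.65 FPKM in the libraries labelled knockout, against 1.52, 2.02 and 1.90 FPKM in the control libraries. The groups overlap over nearly their whole range. The means were 1.78 ± 0.257 FPKM in the libraries labelled knockout and 1.81 ± 0.261 FPKM in the control libraries (SD, n = 3 each), with a log2 difference of -0.02 ± 0.16 (SE). Ckb made up 93.1% to 98.6% of the summed FPKM of the 4 kinases in the libraries labelled knockout and 89.6% to 100% in the control libraries. That sum was 2.11, 1.74 and 1.68 FPKM in the libraries labelled knockout and 1.60, 2.02 and 2.12 FPKM in the control libraries, again with overlap. Reads of Ckb may be shared with a near-copy, the gene model Gm12892, whose transcript is 96.8% identical to it over 1149 aligned bases and which was listed at no more than 0.14 FPKM. The pseudogenes Ckb-ps1 and Ckb-ps2 are 87.7% and 88.6% identical and were listed at no more than 0.03 and at 0 FPKM. No other transcript aligned to that of Gatm or Gamt over at least 200 bases.

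The creatine transporter gene Slc6a8 (ENSMUSG00000019558, GRCm38 chrX:73673150-73682502, plus strand) was barely detected. It had 0.17, 0.01 and 0.04 FPKM in the libraries labelled knockout, against 0.16, 0.04 and 0.10 FPKM in the control libraries, so both groups hold 1 library well above their lowest. About 33 reads in all libraries labelled knockout together (95% exact Poisson interval 22.7 to 46.3) and 39 in all control libraries (27.7 to 53.3) lay behind them. These intervals cover counting error only, since PCR copies of reads are not independent molecules. The muscle kinase gene Ckm (ENSMUSG00000030399, GRCm38 chr7:19404776-19422841, plus strand) had 0.02, 0.07 and 0.03 FPKM in the libraries labelled knockout and 0.05, 0 and 0.05 FPKM in the control libraries, or 9 reads in all libraries labelled knockout and 7 in all control libraries. A noncoding gene on the other strand, A930016O22Rik, overlaps Ckm, and the longest aligned stretch between their transcripts was 213 bases. The library method does not mark strand, so any reads from shared bases cannot be assigned between them. Ckmt1 (ENSMUSG00000000308, GRCm38 chr2:121357714-121363737, plus strand), the mitochondrial kinase gene that lies 3.25 Mb from the start of Thbs1, had 0.01, 0.05 and 0 FPKM in the libraries labelled knockout and 0.03, 0 and 0.05 FPKM in the control libraries. Only 4 reads were found in the libraries labelled knockout and 5 in the control libraries, so no difference was detectable at this depth. Ckmt2 (ENSMUSG00000021622, GRCm38 chr13:91853387-91876885, minus strand), the mitochondrial kinase gene of striated muscle, was listed at 0 in all 3 libraries labelled knockout and at 0, 0 and 0.12 FPKM in the control libraries. The 0.12 FPKM stands for 4 reads, and the 3 reads that a count of 0 allows would be 0.0653 to 0.0784 FPKM in the libraries labelled knockout. Of 11 markers of striated muscle, where Ckm and Ckmt2 are usual, 1 reached 1 FPKM: Mylpf, at 2.68 to 5.1 FPKM. Tnnc2 was at 0 in all libraries. The list summed to 3.38 to 5.13 FPKM in the libraries labelled knockout and 4.86 to 5.79 FPKM in the control libraries.

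Ordered by the mean over all 6 libraries, the members ran Gatm (61.9 FPKM), Gamt (2.69), Ckb (1.80), Slc6a8 (0.0867), Ckm (0.0367), Ckmt1 (0.0233) and Ckmt2 (0.02). Neighbours in this order were compared within libraries on the log2(FPKM + 1) scale as a description, with no p-value, since the order itself comes from these values. Gatm exceeded Gamt by 4.01 ± 0.58 (SD, 6 of 6 libraries), and Ckb exceeded Slc6a8 by 1.36 ± 0.14 (6 of 6). The lowest library of Gatm lay above the highest of Gamt, and the lowest of Ckb above the highest of Slc6a8. Gamt exceeded Ckb in 5 of 6 libraries by 0.39 ± 0.22. More reads lay behind Ckb than behind Gamt, 431 against 347 in the libraries labelled knockout and 374 against 262 in the control libraries. The order of Gamt and Ckb therefore rests on the exon lengths used, 1444 bp for Gamt and 2895 bp for Ckb. Slc6a8 exceeded Ckm by 0.07 ± 0.10, and Ckmt1 exceeded Ckmt2 by 0.01 ± 0.06, less than the SD. Ckm exceeded Ckmt1 by 0.02 ± 0.02, in 4 of 6 libraries.

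Promoter sequence, which the choice of genes did not use, was compared between the 3 members above 1 FPKM and the members near 0 as a description of 7 windows, with no test. RefSeq promoter entries (GRCm38.p6) were found for 6 of the 7 members, with 2 for Ckmt1. The 250 bases before the start of Gatm, Gamt and Ckb and of the kinases Ckm and Ckmt1 are shown because they set detected members beside near-absent ones, read along the gene's strand, with capitals marking matches on either strand to 4 motifs.
Gatm: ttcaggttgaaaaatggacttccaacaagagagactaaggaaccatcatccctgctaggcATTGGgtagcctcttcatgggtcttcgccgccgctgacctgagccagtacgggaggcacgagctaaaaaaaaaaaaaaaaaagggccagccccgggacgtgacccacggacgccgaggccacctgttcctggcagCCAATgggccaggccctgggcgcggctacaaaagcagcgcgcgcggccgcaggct
Gamt: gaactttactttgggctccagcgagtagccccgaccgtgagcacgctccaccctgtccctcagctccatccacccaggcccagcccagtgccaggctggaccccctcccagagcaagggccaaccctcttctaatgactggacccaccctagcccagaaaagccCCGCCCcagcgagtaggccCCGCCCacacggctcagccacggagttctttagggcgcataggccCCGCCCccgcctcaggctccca
Ckb: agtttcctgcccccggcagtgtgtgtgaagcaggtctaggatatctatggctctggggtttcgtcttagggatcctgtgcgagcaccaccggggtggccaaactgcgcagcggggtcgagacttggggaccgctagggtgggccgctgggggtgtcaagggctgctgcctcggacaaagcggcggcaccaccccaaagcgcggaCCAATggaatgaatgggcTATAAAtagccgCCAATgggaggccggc
Ckm: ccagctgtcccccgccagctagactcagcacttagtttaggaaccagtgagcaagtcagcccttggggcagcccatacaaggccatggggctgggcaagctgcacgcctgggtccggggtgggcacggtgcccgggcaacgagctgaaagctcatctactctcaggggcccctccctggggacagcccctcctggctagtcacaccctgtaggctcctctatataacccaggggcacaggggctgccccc
Ckmt1: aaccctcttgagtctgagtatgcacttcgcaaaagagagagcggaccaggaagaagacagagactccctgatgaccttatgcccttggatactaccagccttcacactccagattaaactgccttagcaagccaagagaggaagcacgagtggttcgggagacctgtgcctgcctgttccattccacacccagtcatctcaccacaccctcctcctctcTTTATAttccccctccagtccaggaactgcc
The windows are chr2:122611278-122611527 for Gatm, chr10:80261013-80261262 for Gamt, chr12:111672339-111672588 for Ckb (all on the minus strand), chr7:19410844-19411093 for Ckm and chr2:121357526-121357775 for the upstream start of Ckmt1 (both on the plus strand).

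The Gatm window holds 17 CpG dinucleotides, Ckb 16 and Gamt 12, against a median of 6 over 32851 RefSeq promoter windows of the same length. The Ckm window holds 6, the Ckmt1 windows 4 and 9, and that of Ckmt2 holds 2. The ratio of observed to expected CpG was 0.776 for Gatm, 0.669 for Ckb and 0.474 for Gamt, 0.230 for Ckm, 0.244 and 0.460 for Ckmt1 and 0.111 for Ckmt2, with a median of 0.373 over all windows. Gamt and the downstream start of Ckmt1 are thus close together. The motifs searched on both strands were the TATA box TATAAA, found in 12.4% of all windows, the CCAAT box CCAAT (33.8%), the GC box GGGCGG (32.7%) and the E-box CACGTG (6.02%), and no matches overlapped one another in these windows. Ckb has TATAAA 28 bases before its start between a pair of CCAAT matches, Gatm has 2 CCAAT matches and none to TATAAA, and Gamt has 3 matches to GGGCGG. Of the members near 0, Ckmt2 has 2 CCAAT matches and 1 to GGGCGG. The upstream Ckmt1 window has 1 TATAAA match on the opposite strand, and the downstream one has 1 CCAAT match. The Ckm window has no exact match to any of the 4 motifs. Other spellings, such as tatataa in the Ckm window, were not searched. Such matches describe letters and not occupied sites.

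The enzymes and carriers around the creatine pathway gave 0 calls by limma. Of 75 genes in 5 lists, 49 were tested, 0 passed the adjusted threshold in either direction, and 8 (16.3%) had an unadjusted p below 0.05, where 16.4% of all tested genes did. Their median log2 difference was 0.03, and that of all tested genes 0.01. The genes named from these lists did not pass the test on FPKM. Rescaled to TPM, 3 methyl donor genes, 8 genes of arginine, glycine and ornithine, 3 of adenylate kinases and AMPK and 2 of ATP export passed, all higher, by 0.01 to 0.37 beyond the median log2 change of all tested genes. That is 32.7% of the 49, where 19.8% of all tested genes passed in that setting. Mat2a, Shmt1, Slc25a15, Ak4, Ampd2, Slc25a4 and Vdac1 were among those that passed under TPM. They are given below with their adjusted p or log2 difference from the fit on FPKM.

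Methyl donor genes supply S-adenosylmethionine to GAMT and clear its product. Of 16, 10 were tested and 0 were called, with 1 unadjusted p below 0.05 and a median log2 difference of 0.02. Mat2a, the methionine adenosyltransferase of non-hepatic cells, averaged 193 ± 3.36 FPKM in the libraries labelled knockout and 175 ± 5.53 FPKM in the control libraries (SD, n = 3 each; limma adjusted p = 0.295). Genes that provide or remove arginine, glycine and ornithine numbered 23, with 13 tested, 0 called and 3 unadjusted p below 0.05, and a median log2 difference of 0.10. Shmt1, a serine hydroxymethyltransferase that yields glycine, averaged 33.5 ± 3.07 FPKM in the libraries labelled knockout and 25.8 ± 3.14 FPKM in the control libraries (limma adjusted p = 0.130). Slc25a15, the mitochondrial ornithine carrier, averaged 13.2 ± 0.953 FPKM in the libraries labelled knockout and 10.6 ± 0.521 FPKM in the control libraries (limma adjusted p = 0.149).

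Adenylate kinases, AMP deaminases and AMPK subunits form the other phosphate relay and energy sensor of the cell. Of 19, 13 were tested, 0 were called, 2 had an unadjusted p below 0.05, and the median log2 difference was 0.03. Ak4, a mitochondrial adenylate kinase, averaged 12.4 ± 1.06 FPKM in the libraries labelled knockout and 9.48 ± 1.23 FPKM in the control libraries (limma adjusted p = 0.152). Ampd2, an AMP deaminase, had a log2 difference of 0.25 ± 0.09 (limma adjusted p = 0.227). Of 10 genes of ATP export from mitochondria 9 were tested, 0 passed in limma and 0 reached an unadjusted p of 0.05, with a median of -0.03. Slc25a4, an ADP/ATP carrier, differed by 0.11 ± 0.07 on the log2 scale (limma adjusted p = 0.459), and Vdac1, the outer membrane channel, by 0.10 ± 0.10 (limma adjusted p = 0.653). Of 7 carriers related to SLC6A8 or credited with creatine export 4 were tested and 0 called, with 2 unadjusted p below 0.05 and a median of -0.23. The taurine transporter gene Slc6a6 averaged 12.4 ± 0.773 FPKM in the libraries labelled knockout and 15.5 ± 0.641 FPKM in the control libraries (limma adjusted p = 0.120), and the GABA transporter gene Slc6a13 averaged 2.90 ± 0.420 FPKM in the libraries labelled knockout and 3.88 ± 0.503 FPKM in the control libraries (limma adjusted p = 0.301).

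**Figure D2:**
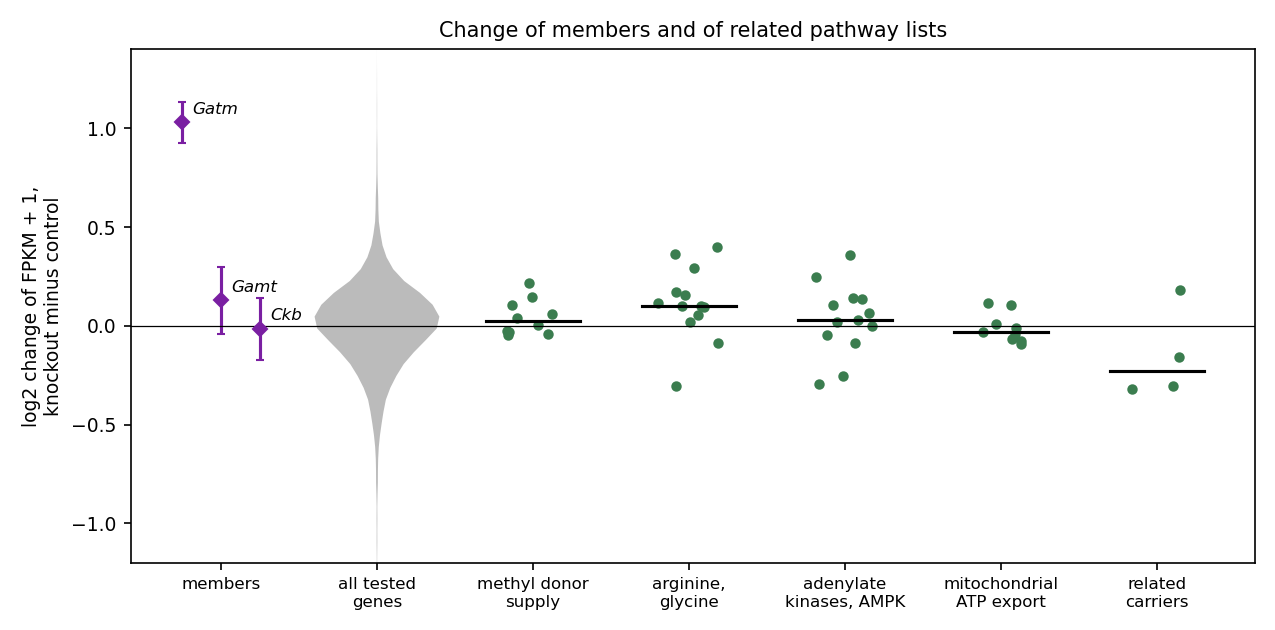
Difference in log2(FPKM + 1), knockout-labelled minus control libraries, for the 3 tested members with their SE, for all 12555 tested genes as a grey density and for the tested genes of 5 related lists, 1 point a gene with a line at the median. Values beyond the axis are left out of view. Gatm stands at 1.03, and no gene of the lists exceeds 0.40.

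Gatm lies among genes that differ in both directions. Of 84 tested genes that start within 5 Mb of the start of Thbs1, 13.1% passed the limma threshold, 3 of them with higher and 8 with lower levels in libraries labelled knockout, against 1.48% of the 12471 tested genes elsewhere. Gatm, 4.48 Mb from Thbs1, is 1 of the 3, so the share of 13.1% includes a gene chosen with its difference known. The others, named after their values were seen, are Rpusd2 and Tmem87a. On its Thbs1 side the nearest tested protein-coding gene, Slc28a2, a nucleoside transporter gene 133 kb away, had 2.38, 2.87 and 2.74 FPKM in the libraries labelled knockout, against 9.86, 9.35 and 7.28 FPKM in the control libraries (log2 difference -1.42 ± 0.13, limma adjusted p = 0.000921). Next to it Shf did not pass (0.20 ± 0.16, limma adjusted p = 0.603), and Sord, the sorbitol dehydrogenase gene, fell to 98.2 ± 2.67 FPKM in the libraries labelled knockout, against 140 ± 11.2 FPKM in the control libraries (limma adjusted p = 0.0112). On the far side Slc30a4, Bloc1s6 and Sqor, between 69.9 and 154 kb away, differed by 0.10, -0.02 and 0.04 on the log2 scale and did not pass (limma adjusted p between 0.828 and 0.950). Spata5l1, annotated as a processed transcript 19.3 kb from Gatm and singled out after its values were seen, had 0.86, 0.97 and 0.70 FPKM in the libraries labelled knockout and 2.37, 2.18 and 3.33 FPKM in the control libraries (limma adjusted p = 0.0328). Around Ckmt1, Pdia3 fell, at 229 ± 9.95 FPKM in the libraries labelled knockout and 289.9 ± 6.45 FPKM in the control libraries (limma adjusted p = 0.0401). Tubgcp4, Trp53bp1, Ppip5k1, Catsper2 and Serf2 did not pass.

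**Figure D3:**
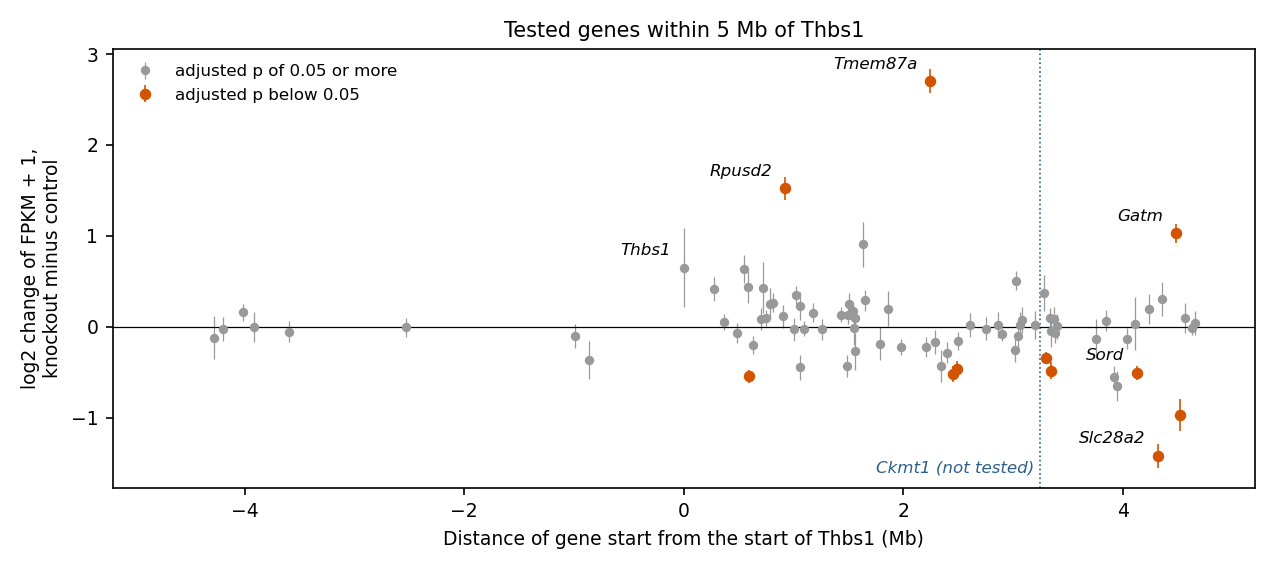
Difference in log2(FPKM + 1), knockout-labelled minus control libraries, with SE, of the 84 tested genes within 5 Mb of Thbs1, against the distance of their start from that of Thbs1. Orange points have a limma adjusted p below 0.05. Gatm lies at 4.48 Mb and 1.03, close to the lower genes Slc28a2 and Sord, and the dotted line marks Ckmt1, which was too low to test.

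**Figure D4:**
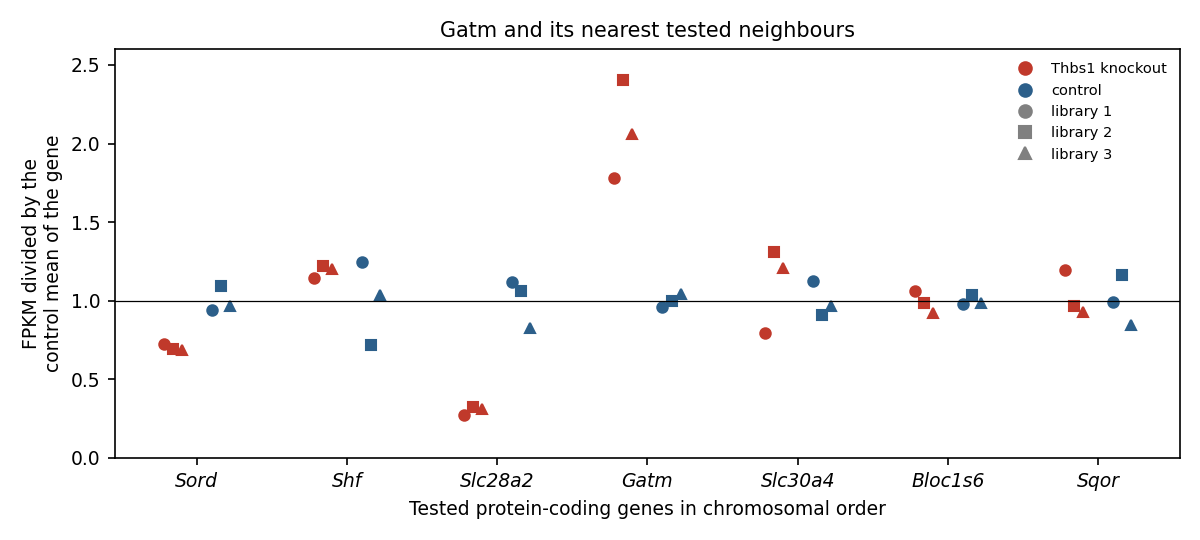
FPKM of Gatm and of 3 tested protein-coding genes on either side, in chromosomal order, each divided by the gene's own control mean. Libraries labelled knockout are red and stand left of the control libraries in blue. Gatm is above and Slc28a2 and Sord are below every control library in all 3 libraries labelled knockout, while Shf, Slc30a4, Bloc1s6 and Sqor overlap.

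Among the genes whose levels followed Gatm most closely over the 6 libraries were Nsun2, an RNA cytosine methyltransferase gene (Pearson r = 0.998), and Zfp622, a zinc finger gene (r = 0.995). Both had groups that do not overlap, with log2 differences of 0.23 and 0.16 that did not pass (limma adjusted p = 0.107 and 0.289). After subtracting the mean of each group, which leaves the order of libraries within groups, the closest were Rsl1d1, a nucleolar protein gene, E130308A19Rik and Tfb2m, a mitochondrial transcription factor gene (r = 0.998, 0.998 and 0.997). Rsl1d1 had 124, 158 and 139.5 FPKM in the libraries labelled knockout and 129, 135 and 139.5 FPKM in the control libraries, the library order of Gatm in each group. These correlations are a description over 6 points that share library and depth, and 122 of 12554 other tested genes reached 0.95 or more over the 6 libraries.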

How the data were processed

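RNA was measured in 6 libraries. Per the labels' protocols, RNA came from cells collected in TRIzol-LS, and libraries were made from 2 ng of it with a SMART-Seq v4 kit. FastQC 0.11.5, edgeR and STAR, with builds mm10 and GRCm38, are listed in the submitters' processing notes. How fragments were assigned to genes is not given in the sources used here. Values are FPKM as deposited by the authors, with 2 decimals. All 52183 identifiers matched GENCODE M21 (GRCm38), the source of positions and exon lengths. Depth was the value that made most FPKM of genes with at most 400 bp of exon whole read numbers within 0.1 read, which 98.7% to 99.5% were.

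The test used limma 3.58.1 (R 4.3.3) and the log2 of FPKM plus 1, on genes reaching 1 FPKM in 3 or more libraries (group as the single term, intensity trend, two-sided, Benjamini-Hochberg, threshold 0.05). This scale understates the change of low genes. The fit was also run on simulated normal values drawn with its own variances, which does not test how it behaves on real FPKM. Near-copies were sought with BLAST 2.17.0 among GENCODE transcripts, at 70% identity over 200 bases. Members, lists and the rule for named genes were chosen with earlier results of these data known: the rule takes all members, up to 4 called genes or else the 2 smallest p of each list, 3 tested neighbours on each side of Gatm and Ckmt1, and the 3 genes most correlated with Gatm in 2 ways. Some genes under this rule are not reported here. Alternatives were a pseudocount of 0.1, no filter, TPM, the median of ratios, a replicate block and leaving out each library.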

Additional observations from a re-analysis of the deposited data

How the results depend on the processing

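For Gatm every library labelled knockout lay above every control library, so leaving out a library could not reverse its difference. That difference lay between 0.92 and 1.14 on the log2 scale when each library was left out. Without a filter, where 35246 genes were tested, it was 1.03 and not past the threshold. Rescaled to TPM, where the median log2 change of all tested genes was 0.21, Gatm differed by 1.24, or 1.03 relative to that median. Ckb was then at 0.15, or -0.06 relative to it. With a library left out, Gamt lay between -0.01 and 0.23 and Ckb between -0.09 and 0.04, so neither has a firm sign. Over all genes, 8 were higher and 16 lower without a filter, and 16 to 38 higher and 43 to 77 lower with a library left out (the cause of these shifts was not tested). Under TPM 2370 were higher. Members called in the lists under TPM numbered 3 for methyl donors, 8 for arginine, glycine and ornithine, 3 for adenylate kinases and AMPK and 2 for ATP export, and 0 in each other setting. The order of neighbouring member levels was recomputed in 8 settings. With a library left out, Ckmt1 minus Ckmt2 ranged from -0.01 to 0.03, and the other pairs stayed above 0.

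With the replicate number as a block, 27 genes were higher and 54 lower, and Gatm differed by 1.03. Same-numbered libraries did not deviate together (correlations of -0.11, 0.0372 and -0.0791), and 1 of 3 libraries labelled knockout correlated best with the control library of its number. No pairing by number was thus seen, though so few libraries cannot settle whether the numbers pair them.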
